A study of Mus musculus with 11 samples.

Results

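Dkk1, Dkk2, Dkk3, Sfrp1, Sfrp2, Frzb and Wif1, which encode secreted antagonists of Wnt signalling, were followed in RNA sequencing of mouse mitral leaflets together with the ligand gene Wnt5a and the receptor genes Ror1 and Ror2. The 10 genes were chosen by name, with earlier results of these data known. All 10 were found by symbol among 24062 genes listed in the Ift88 table and among 26667 in the Dzip1 table. Mitral leaflets are the thin flaps of the heart's mitral valve. In the Ift88 experiment, 3 knockout libraries came from mice with NfatC1Cre(+) and Ift88f/f, and 2 wild-type libraries from mice with NfatC1Cre(+) and Ift88+/+, so that both groups carried the Cre recombinase. Nfatc1 is a gene of valve endocardial cells, and a Cre driven by it does not act in every cell of a leaflet. In the Dzip1 experiment, 3 libraries were Dzip1S14R/+, heterozygous for the S14R allele, and 3 were Dzip1+/+. Neither age nor animal is given per library in the labels, so a p-value here speaks of the spread between libraries, which may be technical.

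Wnt proteins are secreted signals that bind Frizzled receptors. With the co-receptors Lrp5 and Lrp6 they stabilise beta-catenin, and with Ror receptors they steer cell shape and polarity instead, a branch for which Wnt5a is the best known ligand. The antagonists act outside the cell: Dkk1 and Dkk2 bind the Lrp co-receptors, while the Sfrp proteins, Frzb and Wif1 bind Wnt proteins themselves. Dkk3 belongs to the Dkk family by sequence, but its binding partner is less settled. Ift88 is needed to build the cilium and Dzip1 acts at its base.

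The 250 bases upstream of the RefSeq start (GRCm38.p6) are shown for 4 of the genes whose groups did not overlap in at least 1 experiment. These are Sfrp2 in the Ift88 experiment, Dkk1 and Dkk2 in the Dzip1 experiment, and Ror2 in both. Frzb, also apart in the Ift88 experiment, is not shown. Capitals mark matches, on either strand, to the GC box GGGCGG or the TATA box TATAAA.
Ror2 promoter, chr13:53286125-53286374, reverse strand: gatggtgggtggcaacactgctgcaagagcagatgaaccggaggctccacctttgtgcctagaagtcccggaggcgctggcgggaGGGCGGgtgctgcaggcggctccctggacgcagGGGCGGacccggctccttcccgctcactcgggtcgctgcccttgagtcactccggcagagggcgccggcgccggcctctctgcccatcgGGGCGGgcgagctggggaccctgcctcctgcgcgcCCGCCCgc
Sfrp2 promoter, chr3:83766071-83766320, forward strand: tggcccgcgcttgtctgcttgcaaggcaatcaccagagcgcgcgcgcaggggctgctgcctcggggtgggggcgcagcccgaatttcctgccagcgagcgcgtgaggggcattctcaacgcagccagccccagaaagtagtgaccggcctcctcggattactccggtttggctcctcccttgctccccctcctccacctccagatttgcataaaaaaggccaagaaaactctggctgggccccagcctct
Dkk1 promoter, chr19:30549497-30549746, reverse strand: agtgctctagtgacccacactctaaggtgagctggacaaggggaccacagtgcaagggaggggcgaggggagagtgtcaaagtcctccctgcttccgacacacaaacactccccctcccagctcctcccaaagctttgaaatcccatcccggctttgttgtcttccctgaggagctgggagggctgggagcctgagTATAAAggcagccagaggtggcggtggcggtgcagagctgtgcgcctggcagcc
Dkk2 promoter, chr3:132085042-132085291, forward strand: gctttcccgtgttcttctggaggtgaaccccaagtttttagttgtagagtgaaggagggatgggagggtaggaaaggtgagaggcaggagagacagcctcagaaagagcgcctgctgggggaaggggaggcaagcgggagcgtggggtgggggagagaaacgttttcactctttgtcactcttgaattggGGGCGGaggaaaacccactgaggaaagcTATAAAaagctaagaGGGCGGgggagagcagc
The Ror2 stretch held 4 GC boxes and 73.2% G and C, and the Sfrp2 stretch held no match and 63.6% G and C. The Dkk1 stretch held 1 TATA box, and the Dkk2 stretch held 1 TATA box and 2 GC boxes. None of these matches overlapped another. In the GENCODE annotation Dkk1 starts at base 30549665, upstream of the RefSeq start. Part of the Dkk1 stretch, with its TATA box, therefore lies within the gene range given below. Promoters of 7 of the 10 genes were matched in RefSeq. Of the 7, 5 held a GC box, as did 32.7% of 32851 promoter stretches of the same length, and 3 held a TATA box, as did 12.4%. All 7 held more G and C, at 55.6% to 73.2%, than the median stretch, at 52.4%. The part of this in the count of GC boxes was not tested. The TCF/LEF core CTTTGAT and the Gli core GACCACCCA, motifs of the factors downstream of Wnt and Hedgehog signalling, were in 0 of the 7, against 3.21% and 0.225% of all stretches.

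Library totals, in counts, ran from 23.4 to 40.3 M for the Ift88 knockout against 31.4 and 53.8 M for its wild type, and 86.0 to 93.5 M in the S14R/+ libraries and 75.1 to 79.1 M in the Dzip1 wild type. Replicates spread far more for Ift88 than for Dzip1, with biological coefficients of variation of 87.7% and 7.85%. Ift88 itself stood at 3.03, 4.12 and 0.428 CPM (counts per 1000000 of the library's total) in the knockout libraries and at 6.31 and 21.2 CPM in the wild type, lower in every knockout library, with a log2 fold change of -2.48 ± 1.13 (SE, adjusted p = 0.801 in edgeR). The Ift88 wild-type libraries stood apart from each other. A list of 18 cardiomyocyte markers summed to 35262 to 45947 CPM in the knockout libraries, 69367 CPM in wild-type replicate 1 and 141 CPM in wild-type replicate 2, where Mb was at 0. A list of 18 valve interstitial and fibroblast markers, all of them detected in every library, summed to 7833 to 10816 CPM in the knockout and to 2092 and 5458 CPM in the wild type. A list of 15 endothelial markers summed to 2533 to 4086 CPM in the knockout and to 520 and 4566 CPM in the wild type. Among the other marker lists, melanocyte and Schwann markers (136 to 324 CPM in the knockout, 90 and 130 CPM in the wild type) and chondrogenic and osteogenic markers (63.3 to 83.9 CPM in the knockout, 11.3 and 44.6 CPM in the wild type) were also higher in every knockout library. In the Dzip1 experiment the interstitial list summed to 7401 to 8009 CPM in S14R/+ and 7843 to 9903 CPM in the wild type, which overlap. There the cardiomyocyte list was higher in every S14R/+ library (48621 to 48993 CPM, against 42133 to 46978 CPM in the wild type), and the macrophage and leukocyte list was lower (125 to 138 CPM, against 139 to 179 CPM in the wild type). The statistics in the authors' deposited Dzip1 table did not follow the genotype labels: across genes they correlated with library deviations at Spearman -0.457, -0.0184 and -0.545 in S14R/+ replicates 1, 2 and 3, and at 0.485, -0.514 and 0.656 in wild-type replicates 1, 2 and 3. The libraries in positions 1, 2 and 3 among the count columns were S14R/+ replicates 1 and 3 and wild-type replicate 2, and these had the lowest correlations. Headers of the count columns name the same genotypes as the labels. The deposited Dzip1 statistics are not used here. Whether the deposited groups or the genotype labels are at fault was not tested, and the Dzip1 comparison below rests on the labels.

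The first comparison asked how these genes differ in leaflets when Ift88 is knocked out. Ror2, Sfrp2, Dkk3 and Frzb were higher in every knockout library than in both wild-type libraries, and Wnt5a, the ligand of the Ror receptors, had nearly the same level in all 3 knockout libraries. No member passed the threshold in edgeR (adjusted p under 0.05). Its adjusted p values ran from 0.801 to 0.984 over the 9 members tested, and 0 of 14244 genes (0%) passed, with 856 at an unadjusted p under 0.05. DESeq2 called 1 member, Ror2, and 379 genes in all, 2.39% of those it gave an adjusted p. The authors' deposited adjusted p also called 1 member, Ror2, against 1.43% of its genes. Without wild-type replicate 1 edgeR called 187 genes and 0 members.

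Ror2, a receptor tyrosine kinase that binds Wnt5a, occupies bases 53109312 to 53286124 of chromosome 13 (GRCm38, reverse strand). It stood at 37.3, 21.5 and 40.6 CPM in the knockout libraries (1171, 867 and 949 counts) and at 6.91 and 8.85 CPM in the wild type (217 and 476 counts). The lowest knockout library was well above the higher wild-type library. The means were 33.2 ± 10.2 CPM (SD, n = 3) in the knockout and 7.88 ± 1.37 CPM (SD, n = 2) in the wild type, and the log2 fold change was 1.96 ± 0.53 (SE) with a 95% interval of 0.67 to 3.24. Its adjusted p was 0.801 in edgeR and 0.0237 in DESeq2, and the authors' deposited table gives 0.0382 with a log2 fold change of 1.60.

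Ror1, the other Ror receptor, stood at 8.42, 42.4 and 43.7 CPM in the knockout libraries and at 32.5 and 9.05 CPM in the wild type. The groups overlapped, with knockout replicate 1 below both wild-type libraries. Its log2 fold change was 0.35 ± 0.91 (SE), with an interval of -1.87 to 2.57. Set against each other per length of exon, Ror2 over Ror1 was 6.02, 0.689 and 1.26 in the knockout libraries and 0.288 and 1.33 in the wild type, which overlap. Ror2 over Wnt5a was 6.45, 3.67 and 6.86 in the knockout libraries and 2.31 and 1.30 in the wild type. All 3 knockout libraries lay above both wild-type libraries in this ratio, which does not depend on library scaling. Ror2 alone was already apart, as were 22.9% of tested genes in either direction. How many other pairs of genes are apart in this way was not computed.

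Wnt5a stood at 10.7, 10.8 and 10.9 CPM in the knockout libraries and at 5.51 and 12.5 CPM in the wild type. The knockout values lay between the wild-type values. The log2 fold change was 0.19 ± 0.66 (SE), with an interval of -1.41 to 1.80 that spans a fall and a rise of more than 2-fold. Of its 7823 exon bases 358 are shared with Gm2670 on the opposite strand, and 347 of the 2153 bases of Sfrp2 with Gm26771. The strand setting of the counting is not given in the sources used here, so reads there could not be told apart.

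**Figure D1:**
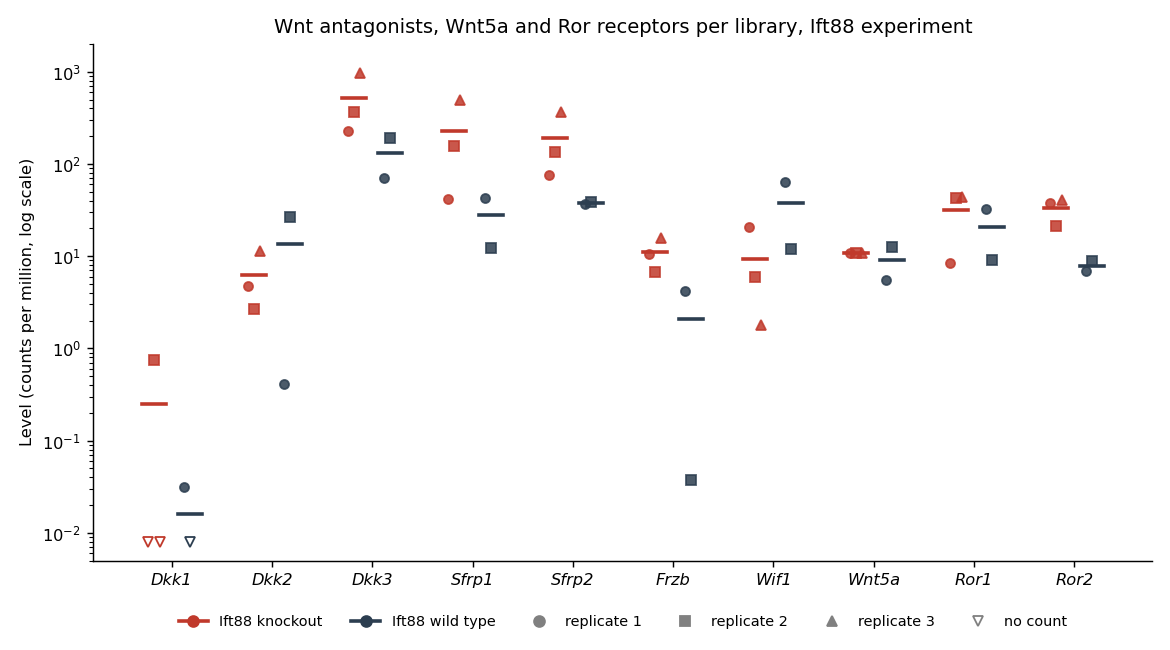
Level of each gene in CPM (log axis) in the Ift88 experiment. Points are libraries, bars are group means, and open triangles are libraries with no count. Ror2, Sfrp2, Dkk3 and Frzb separate the 3 knockout from the 2 wild-type libraries, while Wnt5a sits at 10.7 to 10.9 CPM in the knockout, between its wild-type values.

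Among the antagonists that bind Wnt proteins, Sfrp2 stood at 75.8, 135 and 362 CPM in the knockout libraries and at 36.4 and 38.3 CPM in the wild type. Every knockout library was higher, by an amount that differed between libraries. For Sfrp2 the log2 fold change was 2.21 ± 0.72 (SE), with an interval of 0.46 to 3.96 and an adjusted p of 0.801 in edgeR and 0.118 in DESeq2. Sfrp1, its close relative, stood at 41.7, 156 and 493 CPM in the knockout libraries and at 43.1 and 12.4 CPM in the wild type. Knockout replicate 1 overlapped with the wild type, and the log2 fold change of 2.81 ± 1.18 (SE) had an interval of -0.07 to 5.68.

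Frzb, also known as Sfrp3, stood at 10.5, 6.75 and 15.7 CPM in the knockout libraries and at 4.17 and 0.0372 CPM in the wild type. The lower wild-type value rests on 2 counts, in the library with few cardiomyocyte transcripts. Its log2 fold change was 2.08 ± 1.72 (SE), with an interval of -2.09 to 6.25 that holds 0. Wif1, which carries a domain of its own for binding Wnt, had the opposite sign: 20.6, 5.88 and 1.80 CPM in the knockout libraries and 63.7 and 12.1 CPM in the wild type. Knockout replicate 1 lay between the wild-type libraries. The log2 fold change of -2.24 ± 1.17 (SE) had an interval of -5.09 to 0.61.

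In the Dkk family, Dkk3 was the most abundant, at 225, 366 and 973 CPM in the knockout libraries and 69.7 and 191 CPM in the wild type. The groups did not overlap, though the closest libraries, knockout replicate 1 and wild-type replicate 2, were near each other. For Dkk3 the log2 fold change was 1.94 ± 0.75 (SE), with an interval of 0.11 to 3.76 and an adjusted p of 0.801 in edgeR and 0.251 in DESeq2. Dkk2 stood at 4.78, 2.66 and 11.3 CPM in the knockout libraries and at 0.414 and 26.4 CPM in the wild type, from 13 and 1421 counts. The wild-type libraries enclosed all knockout values. Its log2 fold change of -1.06 ± 1.45 (SE) turned to 3.59 without wild-type replicate 2. Dkk1 had 0, 30 and 0 counts in the knockout libraries and 1 and 0 in the wild type, and did not pass the filter of edgeR. DESeq2 gave it a log2 fold change of 3.68 ± 4.36 (SE, adjusted p = 0.825). Its 0 counts allow up to 0.0957 and 0.128 CPM in knockout replicates 1 and 3 and 0.0558 CPM in wild-type replicate 2, limits that cover counting error only.

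Over the 9 members that passed the filter on low counts the log2 fold changes ran from -2.24 to 2.81, with a median of 1.94 against -0.01 over all genes tested, and 7 were positive. In 4 of the 9 every knockout library was higher, as in 15.4% of all tested genes, and in 0 every knockout library was lower, as in 7.55%. Groups that do not overlap in either direction were found in 22.9% of tested genes. An unadjusted p under 0.05 was reached by 3 members, Ror2, Sfrp2 and Dkk3, as by 6.01% of tested genes. The members were chosen with earlier results of these data known, so these shares are no independent test. In the libraries with the IR28N title prefix alone, 2 knockout and 1 wild type, where the lone library is assumed to vary like the others, the log2 fold changes were 1.80 for Ror2, 1.78 for Dkk3, 1.22 for Sfrp2, 0.88 for Sfrp1 and 0.75 for Frzb, and none passed the threshold in edgeR.

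**Figure D2:**
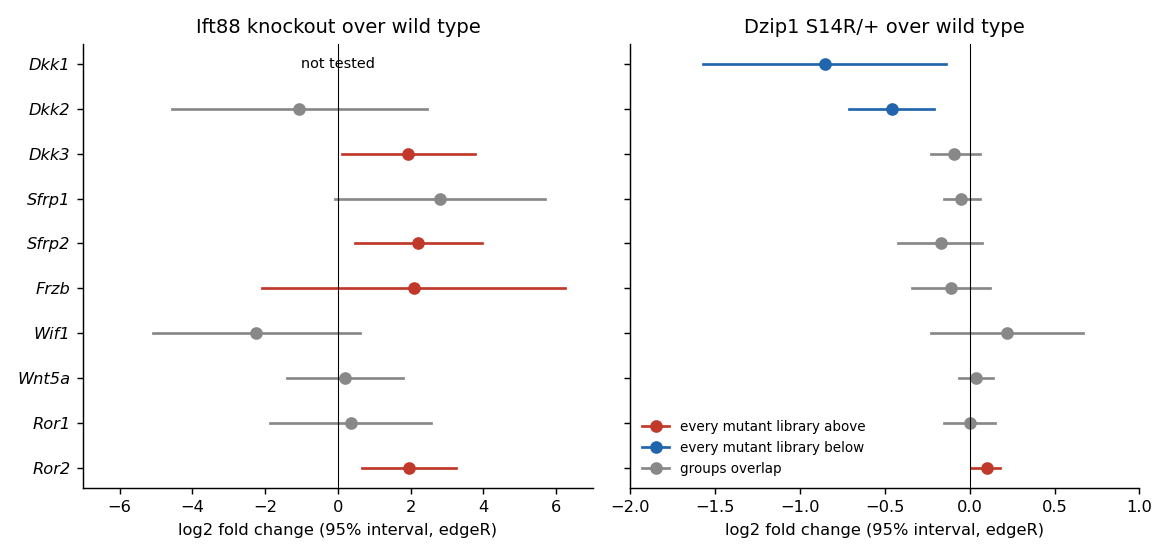
Log2 fold changes from edgeR with 95% intervals, Ift88 knockout over wild type on the left and Dzip1 S14R/+ over wild type on the right, with different x axes. Colours show whether every mutant library lay above or below every wild-type library. The left intervals are several log2 units wide (Ror2 0.67 to 3.24) and most right intervals are a fraction of 1 unit (Ror2 0.01 to 0.18).

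The knockout libraries were not alike in these genes. Dkk3, Sfrp1 and Sfrp2 were highest in knockout replicate 3 and lowest in knockout replicate 1, and Wif1 was highest in knockout replicate 1 and lowest in knockout replicate 3. The coefficient of variation within the knockout group was 76.2% for Dkk3, 102% for Sfrp1, 79.2% for Sfrp2 and 105% for Wif1, against 30.8% for Ror2 and 1.08% for Wnt5a. Knockout replicate 3 carries a title prefix of its own. Leaving it out gave log2 fold changes of 1.59 for Sfrp1, 1.36 for Sfrp2, 1.13 for Dkk3 and -1.75 for Wif1. The value for Wif1 rested most on wild-type replicate 1: it was -0.31 without that library and -3.61 without knockout replicate 1. Across the 5 fits that each leave out 1 library, Ror2 stayed between 1.80 and 2.20.

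**Figure D3:**
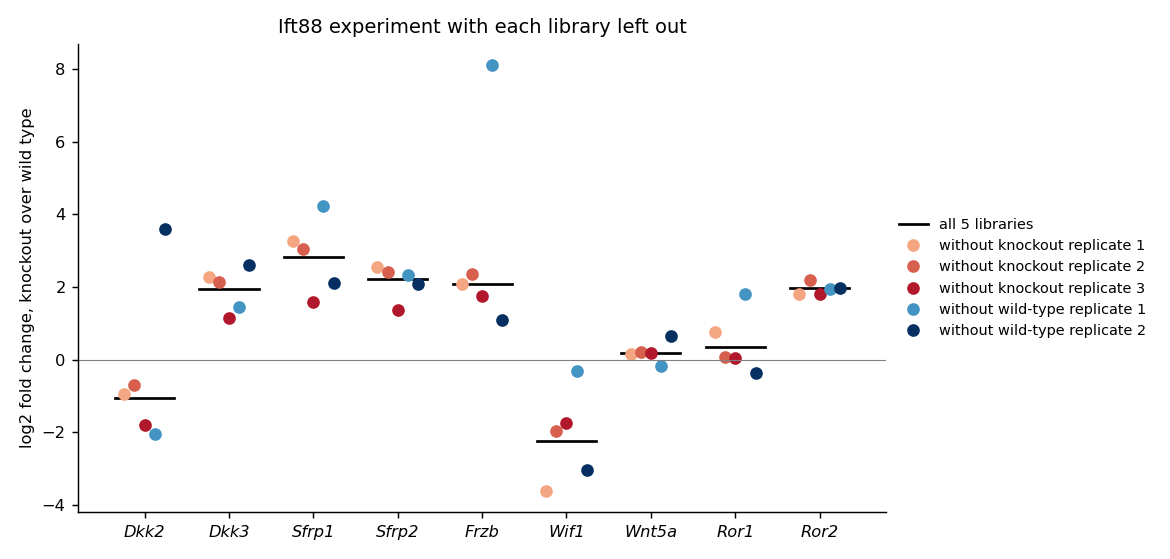
Log2 fold change of 9 members, Ift88 knockout over wild type, with all 5 libraries (bar) and with each library left out (points). Ror2 stays between 1.80 and 2.20, while Dkk2 runs from -2.06 to 3.59. The point at 8.10 for Frzb is a fit against the 2 counts of wild-type replicate 2 and depends on the prior count of the fit.

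The summed interstitial and fibroblast, melanocyte and Schwann, and chondrogenic and osteogenic markers were each higher in every knockout library, as were Ror2, Sfrp2, Dkk3 and Frzb. Within the knockout these 4 genes were each highest in replicate 3. The interstitial sum was 10816, 10512 and 7833 CPM in replicates 1, 2 and 3, lowest where these genes were highest. Melanocyte and Schwann markers stood at 324, 136 and 151 CPM, and chondrogenic and osteogenic markers at 63.4, 63.3 and 83.9 CPM. The part of these lists in the results was not tested. In RNA of whole tissue, fewer cells of a type and less RNA per cell cannot be told apart. Levels were also set against the interstitial and fibroblast sum, in a ratio chosen after the data were seen. Ror2 stood at 3.45, 2.05 and 5.19 CPM per 1000 CPM of marker transcripts in the knockout libraries. In the wild type it stood at 3.30 and 1.62. These groups overlap. Sfrp2 stood at 7.01, 12.8 and 46.2 in the knockout and 17.4 and 7.01 in the wild type, and Dkk3 at 20.8, 34.8 and 124 in the knockout and 33.3 and 35 in the wild type. Frzb stood at 0.967, 0.643 and 2.01 in the knockout and 1.99 and 0.00681 in the wild type. None of the 4 genes kept its groups apart in this ratio. Its divisor was itself higher in every knockout library. Only 2.37% of all tested genes were higher in every knockout library in this ratio, against 15.4% in CPM. Wnt5a and Wif1 were lower in every knockout library in this ratio, as were 46.2% of all tested genes. Wnt5a stood at 0.988, 1.03 and 1.39 in the knockout and 2.63 and 2.3 in the wild type, and Wif1 at 1.9, 0.56 and 0.23 in the knockout and 30.4 and 2.22 in the wild type. Without wild-type replicate 2, where the cardiomyocyte markers were near 0, the log2 fold changes were 1.96 for Ror2, 2.07 for Sfrp2, 2.59 for Dkk3 and 1.09 for Frzb. In that fit the cardiomyocyte markers were lower in every knockout library than in the remaining wild-type library, and their part in these values was not tested.

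**Figure D4:**
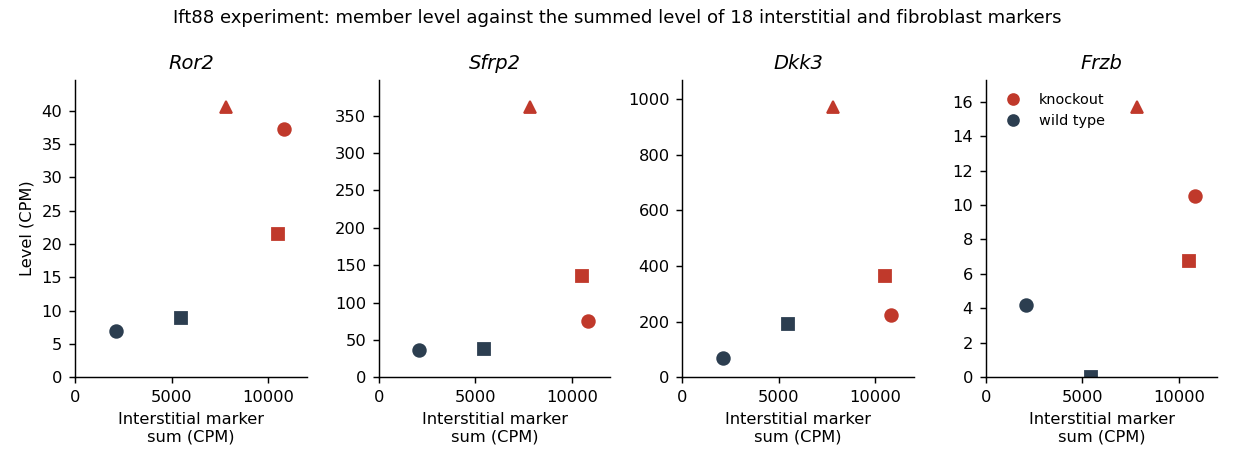
Level of the 4 genes that were higher in every Ift88 knockout library (y axis, CPM) against the summed level of 18 interstitial and fibroblast markers (x axis, CPM). Each point is a library, and shapes are replicates 1 (circle), 2 (square) and 3 (triangle). The knockout libraries lie to the right of the wild-type libraries, at 7833 to 10816 CPM against 2092 and 5458 CPM, as well as above them.

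The second comparison asked how the same genes differ in leaflets heterozygous for Dzip1 S14R. Dkk2 and Dkk1 were lower, and Ror2 slightly higher, in every S14R/+ library than in every wild-type library, while the other 7 members overlapped. No member passed in edgeR or DESeq2. The adjusted p in edgeR ran from 0.822 to 0.997 over the 10 members, and 0 of 16160 genes (0%) passed, with 959 at an unadjusted p under 0.05 and 0 called by DESeq2. Dzip1 itself stood at 28.6 ± 0.791 CPM in S14R/+ and 30.1 ± 2.39 CPM in the wild type (SD, n = 3 each). Counts per gene do not show the S14R allele, so this does not check the labels.

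Dkk2, on chromosome 3 of GRCm38 from 132085292 to 132180304, stood at 3.89, 4.38 and 4.20 CPM in the S14R/+ libraries and at 5.02, 6.16 and 6.12 CPM in the wild type. The highest S14R/+ library was below the lowest wild-type library. The log2 fold change was -0.46 ± 0.11 (SE), with an interval of -0.71 to -0.21, an unadjusted p of 0.00237 and an adjusted p of 0.822 in edgeR. Dkk1, on chromosome 19 from 30545863 to 30549665, had few counts: 47, 49 and 28 in S14R/+ and 73, 47 and 76 in the wild type. In CPM these were 0.547, 0.541 and 0.3 in S14R/+ against 0.928, 0.594 and 1.01 in the wild type, with S14R/+ replicates 1 and 2 just below wild-type replicate 2. For Dkk1 the log2 fold change was -0.85 ± 0.32 (SE), with an interval of -1.57 to -0.14 and an adjusted p of 0.822 in edgeR.

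Ror2 stood at 88.2, 90.1 and 87.2 CPM in the S14R/+ libraries and at 86.9, 83.2 and 80.3 CPM in the wild type. S14R/+ replicate 3 and wild-type replicate 1 almost touched. The log2 fold change was 0.10 ± 0.04 (SE), with an interval of 0.01 to 0.18 and an adjusted p of 0.828 in edgeR. Wnt5a stood at 98.3 ± 2.59 CPM in S14R/+ and 96.2 ± 4.84 CPM in the wild type (SD, n = 3 each), with an interval of -0.06 to 0.14 for the log2 fold change. Per length of exon, Ror2 over Wnt5a was 1.64, 1.66 and 1.69 in the S14R/+ libraries and 1.58, 1.60 and 1.62 in the wild type. These were apart by a small margin, as Ror2 alone was, and other pairs of genes were not computed. Ror1 stood at 35.8 ± 0.759 CPM in S14R/+ and 36.1 ± 3.01 CPM in the wild type (SD, n = 3 each), with an interval of -0.15 to 0.15.

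The remaining antagonists overlapped between the groups. Sfrp1 had 399, 411 and 393 CPM in S14R/+ and 396, 436 and 421 CPM in the wild type, and an interval of -0.15 to 0.06. Sfrp2 had 179, 196 and 139 CPM in S14R/+ and 174, 205 and 206 CPM in the wild type, and an interval of -0.42 to 0.07. These bounds leave out changes as large as those fitted in the Ift88 experiment, but not small ones. Dkk3 had 144 ± 12.6 CPM in S14R/+ and 154 ± 10.4 CPM in the wild type, and Frzb 19.6 ± 1.49 CPM in S14R/+ and 21.3 ± 3.06 CPM in the wild type (SD, n = 3 each). Wif1 had 3.79 ± 0.644 CPM in S14R/+ and 3.28 ± 0.879 CPM in the wild type (SD, n = 3 each), with an interval of -0.23 to 0.67.

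Over all 10 members the median log2 fold change was -0.07 against 0.00 over all genes tested, with 4 positive. Every S14R/+ library was higher in 1 of 10 members, as in 4.58% of tested genes, and lower in 2 of 10, as in 5.86%. Groups that do not overlap in either direction made up 10.4% of tested genes. An unadjusted p under 0.05 was reached by 3 of 10, as by 5.93% of tested genes. Per 1000 CPM of the interstitial markers, Dkk2 stood at 0.510, 0.547 and 0.568 in S14R/+ and 0.640, 0.707 and 0.618 in the wild type, still apart. Ror2 stood at 11.6, 11.2 and 11.8 in S14R/+ and 11.1, 9.55 and 8.11 in the wild type, also apart. Sfrp1, at 51.3 to 53.1 in S14R/+ and 42.5 to 50.4 in the wild type, and Ror1, at 4.54 to 4.89 in S14R/+ and 3.5 to 4.53 in the wild type, were higher in every S14R/+ library in this ratio. So were 24.5% of all tested genes, while 0.73% were lower in every S14R/+ library as Dkk2 was. Dkk1 stood at 0.0718, 0.0676 and 0.0405 in S14R/+ and 0.118, 0.0682 and 0.102 in the wild type, which overlap. The part of the cardiomyocyte, macrophage and leukocyte markers in these results was not tested.

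**Figure D5:**
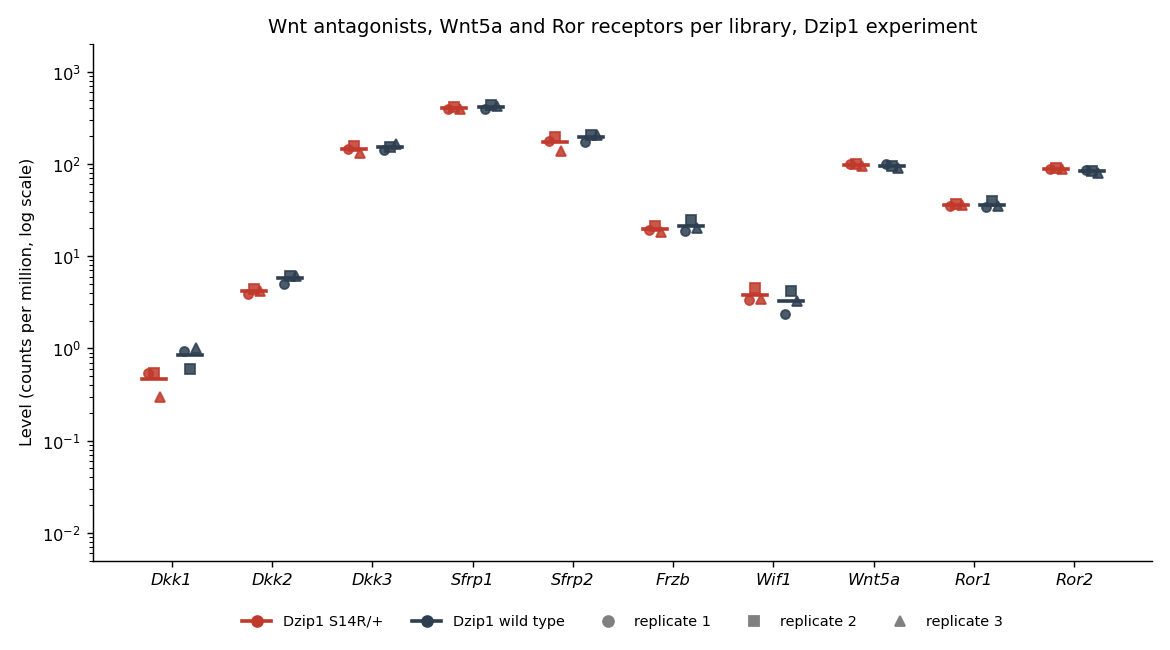
Level of each gene in CPM (log axis) in the Dzip1 experiment. Points are libraries and bars are group means. Dkk1 (0.3 to 1.01 CPM) and Wif1 (2.39 to 4.53 CPM) spread most over the 6 libraries in the plot, and Dkk1 and Dkk2 are lower in the 3 S14R/+ libraries.

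Compared per length of exon (counts per kilobase of exon, scaled to 1000000 over all genes), Sfrp1 and Sfrp2 led the members in the Dzip1 experiment, at 357 ± 7.52 and 310 ± 53.1 in S14R/+ and 370 ± 19.5 and 350 ± 32.9 in the wild type (SD, n = 3 each). They overlapped each other in both groups. Dkk3, Ror2 and Wnt5a followed in that order, at 166 ± 14.4, 81.1 ± 1.18 and 48.9 ± 1.34 in S14R/+ (SD, n = 3), each apart from the next in every library. Ror1 and Frzb overlapped at 24.2 ± 0.38 and 23.5 ± 1.74 in S14R/+ (SD, n = 3), and Wif1, Dkk2 and Dkk1 came last, with Wif1 and Dkk2 overlapping in the wild type. In the Ift88 experiment Dkk3 had the highest mean in both groups, at 479 ± 365 in the knockout (SD, n = 3) and 112 ± 80.9 in the wild type (SD, n = 2). In the knockout the neighbours in this order overlapped down to Wnt5a, which at 4.25 ± 0.159 (SD, n = 3) was apart from Dkk1. In the wild type Dkk3 was apart from Sfrp2, which came next by mean, but Wif1 was above Dkk3 in wild-type replicate 1, at 69.4 against 54.9, and the later neighbours overlapped.

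Levels in the 2 experiments were counted in separate tables and are set side by side without a test. Wnt5a was at 5.51 to 12.5 CPM in the Ift88 experiment and 91.5 to 101 CPM in the Dzip1 experiment, with no overlap across genotypes. Ror2 was at 6.91 to 40.6 CPM and 80.3 to 90.1 CPM, also without overlap. Ror1, at 8.42 to 43.7 CPM and 33.9 to 39.5 CPM, and Dkk3, at 69.7 to 973 CPM and 131 to 164 CPM, overlapped. The experiments share no libraries. The titles of the Ift88 libraries carry the word re-analyzed and those of the Dzip1 libraries do not, and the part of this in the levels was not tested.

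Other genes of the pathway were followed in 5 lists, also chosen with earlier results of these data known. The lists share genes, so their counts are not independent. Nkd1, Nkd2, Notum, Rnf43 and Znrf3 are listed both as inhibitors and as targets of beta-catenin, and Lgr5 both as a receptor and as a target. Among 14 tested inhibitors outside the members, edgeR and DESeq2 called 0 in the Ift88 experiment; Bambi, a decoy receptor of the TGF-beta family that also modulates Wnt signalling, stood at 73.6 ± 9.23 CPM in the knockout (SD, n = 3) and 153 ± 58.1 CPM in the wild type (SD, n = 2). Apcdd1, a membrane inhibitor of Wnt, stood at 29.9 ± 10.7 CPM in the knockout and 8.38 ± 1.26 CPM in the wild type. All 15 tested Frizzled, Lrp, Lgr and R-spondin genes had a positive log2 fold change, with a median of 0.88, where 49.4% of all tested genes were positive. In 4 of the 15 every knockout library was higher, as in 15.4% of all tested genes, and 0 were called. Of these, Fzd1 stood at 40.9 ± 19.9 CPM in the knockout (SD, n = 3) and 14.6 ± 2.23 CPM in the wild type (SD, n = 2). The summed interstitial and fibroblast markers were also higher in every knockout library, and their part in the results of the lists was not tested.

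Among 19 tested co-receptors of Wnt5a and relays of Dishevelled, 14 were positive with a median of 0.47 and 0 were called. Daam1, a formin that links Dishevelled to the actin cytoskeleton, stood at 68.1 ± 21.2 CPM in the knockout (SD, n = 3) and 21.7 ± 1.66 CPM in the wild type (SD, n = 2), with a log2 fold change of 1.52 ± 0.42 (SE, adjusted p = 0.801 in edgeR and 0.0699 in DESeq2). The list of beta-catenin targets, which also holds the Tcf factor genes Tcf7l1 and Tcf7l2, had 14 tested genes. Their median was 0.26, with 12 positive and 0 called. Among these genes Axin2, a direct target, was low, at 1.86 ± 1.51 CPM in the knockout and 0.471 ± 0.306 CPM in the wild type (SD, n = 3 and 2). Its log2 fold change was 1.90 ± 1.70 (SE, adjusted p = 0.904 in edgeR), and 1.02 without knockout replicate 2. Ccnd1, which encodes cyclin D1, stood at 36.8 ± 5.38 CPM in the knockout and 14.9 ± 3.6 CPM in the wild type (SD, n = 3 and 2). The 10 tested Wnt ligands and secretion genes had a median of 0.09, and Wls, the carrier that Wnt proteins need to leave the cell, stood at 416 ± 53.1 CPM in the knockout and 325 ± 153 CPM in the wild type.

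In the Dzip1 experiment the medians of the 5 lists ran from -0.07, for 13 ligands and secretion genes, to -0.01, and edgeR and DESeq2 called 0 of their members. Dkkl1, a relative of the Dkk genes, stood at 0.251 ± 0.109 CPM in S14R/+ and 0.495 ± 0.0558 CPM in the wild type (SD, n = 3 each), with every S14R/+ library lower and an adjusted p of 0.822 in edgeR. Axin2 stood at 15.4 ± 1.24 CPM in S14R/+ and 17.6 ± 1.59 CPM in the wild type (SD, n = 3 each), and the groups overlapped. Wnt7a stood at 0.557 ± 0.0466 CPM in S14R/+ and 0.907 ± 0.32 CPM in the wild type (SD, n = 3 each).

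Over the 11 libraries the profile most like that of Ror2 was that of Orc1, a subunit of the origin recognition complex, followed by Sdk1, an adhesion protein, and Slc29a3, a nucleoside transporter, at distances of 0.230, 0.431 and 0.455. The distance is Euclidean, on log2(CPM + 1) centred within each experiment, and was taken over 11072 genes. Orc1 was low in the Ift88 experiment, at 3.89, 2.26 and 4.71 CPM in the knockout and 0 and 0.39 CPM in the wild type. The added 1 CPM shrinks differences at such levels, so its small distance to Ror2 depends on that setting. Slc29a3 averaged 32.5 CPM in the Ift88 knockout and 8.68 CPM in its wild type, close to Ror2 at 33.2 and 7.88 CPM. In the Dzip1 experiment Slc29a3 averaged 15.2 CPM in S14R/+ and 15.3 CPM in the wild type. There Ror2 was at another level, 88.5 CPM in S14R/+ and 83.5 CPM in the wild type, and its slight rise in S14R/+ was not shared by Slc29a3. Sfrp2 was the nearest member to Ror2, at rank 1265 and a distance of 1.67. The profiles most like that of Wnt5a were those of Npepps, Gstm1 and Pole3, at 0.192, 0.204 and 0.206, and its nearest member, Ror2, came at rank 7696.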

How the data were processed

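RNA of mitral leaflets was sequenced in 11 libraries, prepared with an RNeasy kit, DNase and the SMART-Seq v4 kit, per the labels' protocols. The build was mm10 (GRCm38), and HTSeq, cutadapt 1.11, FastQC 0.11.5, DESeq and DESeq2 were named, per the submitters' processing notes. For the aligner, annotation and strand setting, nothing is stated by the labels or headers. The deposited tables give counts per gene and library, per the file headers, beside results of the authors: baseMean, a signal that is the mean of scaled counts, log2 fold changes with standard errors, a score (fold over error) and p-values. The deposited Dzip1 results did not follow the genotype labels and are not used.

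Levels are counts per 1000000 of the library total. Genes were tested per experiment with edgeR 4.0.16 (R 4.3.3, quasi-likelihood F test, TMM, filterByExpr, Benjamini-Hochberg over all tested genes, threshold 0.05), and tested on simulated data. DESeq2 1.42.0, other scalings, filters, a transcript length offset and left-out libraries were alternatives. Exon lengths came from GENCODE M21: 361 and 2068 listed genes in the Ift88 and Dzip1 tables had none. Promoters came from RefSeq GRCm38.p6. Replicates were numbered in accession order. The members and lists were chosen with earlier results of these data known. Beside the members, up to 3 genes of each list with the smallest p were eligible to be named, and the 3 nearest profiles among genes with a mean of at least 1 CPM in both experiments.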

Additional observations from a re-analysis of the deposited data

How the results depend on the processing

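Of 53 fold changes refitted 633 times in all, 613 refits kept the direction and the side of the threshold, 1 crossed the threshold (Ror2 in the Ift88 experiment with DESeq2, adjusted p = 0.0237, within a range of 0.0237 to 1 over its alternatives) and 19 turned the direction, in 9 fold changes of 7 genes, none of them called in edgeR. The cause was not tested. In the Ift88 experiment the count of members called, 0 in edgeR, was 1 with DESeq2 and 1 by the authors' deposited adjusted p; it was 0 at a threshold of 0.1, under each scaling and filter, and with each library left out. The direction turned for Dkk2 without wild-type replicate 2 (3.59) and in the IR28N libraries alone (2.87), for Ror1 in the same fits (-0.37 and -0.68), and for Wnt2 in the same fits (1.42 and 1.70); leaving out a library gave -2.06 to 3.59 for Dkk2, -0.37 to 1.79 for Ror1 and -1.28 to 1.42 for Wnt2. It turned for Wnt5a with the length offset (-0.23) and without wild-type replicate 1 (-0.19), and for Wls in the same fits (-0.24 and -0.04), with ranges of -0.19 to 0.66 for Wnt5a and -0.04 to 0.63 for Wls. In the Dzip1 experiment it turned for Frzb without wild-type replicate 2 (0.02, lowest -0.20), for Ror1 with library totals alone (-0.01) and in 4 of the fits that leave out a library, which ran from -0.04 to 0.09, for Wnt5a without wild-type replicate 3 (-0.00, highest 0.08) and for Ift88 without S14R/+ replicate 1 (0.00) or wild-type replicate 2 (0.04).

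The count of members with every Ift88 knockout library higher was 4, and ran from 4 to 6 with a library left out, while the share of all tested genes ran from 18.5% to 40.6% (15.4% with all libraries); per summed interstitial markers it was 0, with 2.37% of genes. The count with every knockout library lower was 0, and ran from 0 to 2 (genes 10.4% to 31.4%); per summed markers it was 2, with 46.2% of genes. With every S14R/+ library higher it was 1, ran from 1 to 3 (3 without wild-type replicate 2, with 12.1% of genes) and was 3 per summed markers, with 24.5% of genes. With every S14R/+ library lower it was 2, ran from 2 to 4 (4 without wild-type replicate 1, with 12.8% of genes) and was 1 per summed markers, with 0.73% of genes. Fewer libraries separate more genes by construction, so the counts with a library left out say nothing particular to the members. The counts per summed markers use all libraries and depend on the divisor, which in the Ift88 experiment was itself higher in every knockout library. These counts under other scalings were added after seeing the data. With library totals alone the median of all genes in the Ift88 experiment was 0.10, against -0.01 with TMM. The authors' deposited adjusted p was not run for Dzip1, since the deposited statistics did not follow the genotype labels. No paired analysis was possible because the labels give no replicate number that libraries of both genotypes share. The IR28N title prefix is shared across the Ift88 genotypes, and the other prefixes hold 1 library each, so a comparison within prefixes rests on the IR28N libraries alone, a fit given here. Counts limit Dkk1 most, with 124 counts in S14R/+ and 196 in the Dzip1 wild type.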
